A study of Homo sapiens with 12 samples.

Results

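Transcripts of 6 annexins (ANXA1, ANXA2, ANXA3, ANXA4, ANXA5 and ANXA6) and 4 S100 proteins (S100A4, S100A6, S100A10 and S100A11) were followed in SH-SY5Y cells that had been exposed to hydrogen peroxide (H2O2) and differentiated with all-trans retinoic acid (ATRA). The 10 genes were listed by name among 55765 gene symbols counted in every library, and the list was chosen by the ANXA2 level, which was higher after H2O2 in both experiments of the study. The ANXA2 difference is therefore described and not tested. SH-SY5Y is a cloned human neuroblastoma line, derived from SK-N-SH, that stops dividing and extends neurites under ATRA. The question addressed was how oxidative stress during or before neuronal differentiation alters the transcriptome.

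All 12 cultures received 10 μM ATRA for 7 days. In the co-treatment experiment, 3 cultures were kept in H2O2 throughout those 7 days and 3 control cultures received ATRA alone. In the pre-treatment experiment, 3 cultures were given H2O2 for 72 h before ATRA was started and 3 controls were not. The H2O2 dose is given as 10 mM in the deposited description and as 10 μM in the methods of the study. After ribosomal RNA was removed, total RNA was sequenced, and between 27576276 and 98287391 reads were counted on genes per library. No source states whether the replicates of a group were grown as separate cultures from the start, so p-values measure only the spread between these samples.

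Annexins are cytosolic proteins that bind acidic phospholipids when calcium rises, through a core of repeated domains, and they take part in membrane repair, vesicle traffic and the anchoring of the membrane to actin. S100 proteins are small EF-hand calcium sensors that act as dimers, and several of them dock onto the amino-terminal tail of an annexin. The best known pair is ANXA2 with S100A10, which lies under the plasma membrane and at the cell surface gathers plasminogen and its activator PLAT. ANXA1 pairs with S100A11, and ANXA5 is widely used to mark phosphatidylserine on dying cells.

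Library quality was uneven in the pre-treatment experiment, and control replicate 3 stood apart. Reads that fell outside annotated genes were 0.200 per counted read in that library, against 0.800 and 0.830 in controls 1 and 2 and 0.343 to 0.462 in the 3 treated libraries. Small structured RNAs took 13.4% of its counts, against 1.30% and 2.29% in the other controls and 10.3% to 11.5% in the treated libraries. The chi-square statistic per degree of freedom between its counts and those of controls 1 and 2 was 545 and 499, whereas the other pairs of replicates in the series gave 24.8 to 147. The pre-treatment fold changes of the tested members are therefore given over all 6 libraries and again without control replicate 3. For some other genes only values without that library are printed, beside the number of listed genes called over all 6 libraries. The unequal shares of reads outside genes and of small RNAs remained between controls 1 and 2 and the treated libraries after that library was left out, and their part in the values was not tested. Noradrenergic neuroblastoma genes were present, with GATA2 at 425 to 1008 counts per 1000000 counted reads (CPM), while TH, which encodes tyrosine hydroxylase, reached at most 0.258 CPM.

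On hg19 the 4 S100 genes lay in one cluster on the minus strand of chromosome 1, with S100A10 at chr1:151955391-151966335, S100A11 at chr1:152004982-152020383, S100A6 at chr1:153507075-153508720 and S100A4 at chr1:153516089-153522612. The annexin genes were spread over other chromosomes. ANXA2 lay at chr15:60639333-60695082 on the minus strand and ANXA3 at chr4:79472901-79531605 on the plus strand. ANXA5 lay at chr4:122589101-122618150 and ANXA6 at chr5:150480267-150537376, both on the minus strand. ANXA1 at chr9:75766781-75785309 and ANXA4 at chr2:69871557-70054244 were on the plus strand. The canonical transcripts of ANXA1, ANXA2, ANXA3, ANXA4 and ANXA5 each had 13 exons. ANXA6, whose protein carries a doubled annexin core, had 26. Each of the 4 S100 transcripts had 3. Exons of S100A6 overlapped another gene on the opposite strand over 3.81% of their length, and no other member shared exonic sequence with a neighbour in this annotation.

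The promoter sequences of ANXA2 and ANXA3, whose treated libraries were all above the controls, are shown with that of S100A10, the binding partner of the ANXA2 protein, whose transcript was hardly counted. Each is the 250 bases before the transcription start in RefSeq on GRCh38.p14, read 5′ to 3′ on the strand of the gene. Capitals mark matches to an AP-1 site (TGANTCA), a GC box (GGGCGG) or a TATA box (TATAAA), and both strands were searched.
ANXA2, chr15:60397987-60398236, minus strand: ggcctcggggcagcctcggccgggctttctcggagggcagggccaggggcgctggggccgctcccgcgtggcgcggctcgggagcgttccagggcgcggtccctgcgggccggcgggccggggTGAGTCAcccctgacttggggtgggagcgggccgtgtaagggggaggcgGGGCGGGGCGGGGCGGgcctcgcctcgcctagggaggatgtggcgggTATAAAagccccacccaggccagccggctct
ANXA3, chr4:78551520-78551769, plus strand: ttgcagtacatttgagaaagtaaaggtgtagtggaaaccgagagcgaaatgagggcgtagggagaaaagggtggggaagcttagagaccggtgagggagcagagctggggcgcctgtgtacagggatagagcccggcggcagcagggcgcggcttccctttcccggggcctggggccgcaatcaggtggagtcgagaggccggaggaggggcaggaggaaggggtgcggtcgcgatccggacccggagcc
S100A10, chr1:151993860-151994109, minus strand: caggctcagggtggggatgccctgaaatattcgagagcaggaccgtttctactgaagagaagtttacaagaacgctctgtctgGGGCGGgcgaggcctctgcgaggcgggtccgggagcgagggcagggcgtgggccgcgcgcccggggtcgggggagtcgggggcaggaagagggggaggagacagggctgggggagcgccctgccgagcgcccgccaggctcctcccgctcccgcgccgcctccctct

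The ANXA2 window held 1 AP-1 match at position -127 from the start, 3 overlapping GC boxes and a TATA box at -31. The ANXA3 window held none of these, and the S100A10 window held 1 GC box. Of 35116 human promoter windows of the same length, 6.57% held the AP-1 letters, 42.6% a GC box and 10.7% a TATA box. The core of the antioxidant response element (TGACNNNGC), searched in the same way and found in 10.9% of all windows, was in none of the 12 windows that RefSeq gave for the 10 members. The number of CG dinucleotides was 28 for ANXA2, 18 for ANXA3 and 24 for S100A10, against a median of 11 over all windows (quartiles 3 and 23). ANXA1 with 0 and S100A4 with 7, each with a TATA box at -31, had the fewest CG dinucleotides, and the windows of the other members had 10 to 36. These matches describe letters only and are not evidence of binding.

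Levels can be compared between genes only per length, so CPM were divided by the length of the canonical transcript in kilobases. S100A6 was far above the rest, with a mean of 306.9 CPM per kb over the 12 libraries, and made up 98.6% of the per-length level of the 4 S100 genes. ANXA5 (51.6), ANXA6 (42.1) and ANXA2 (29.3 CPM per kb) were the abundant annexins, with 39.4%, 32.1% and 22.4% of the annexin level. Their ranges over the libraries overlapped, at 36.6 to 75.3 for ANXA5, 28.4 to 56.0 for ANXA6 and 7.99 to 59.1 for ANXA2. Within each library, however, ANXA5 was above ANXA6. ANXA2 was below ANXA6 in all controls and in the co-treated libraries. In pre-treated libraries 1, 2 and 3 ANXA2 was above ANXA6, at 59.1, 48.7 and 37.1 against 50.6, 46.0 and 28.4 CPM per kb. With the union of all annotated exons as the length, which is longer where transcripts retain introns, the means were 28.9 for ANXA5, 22.1 for ANXA6 and 3.94 CPM per kb for ANXA2, so the place of ANXA2 near the other annexins rests on the canonical length. ANXA4 (7.49, range 5.46 to 9.30) and S100A4 (4.14, range 2.35 to 6.07 CPM per kb) followed and also overlapped each other, and with the exon union their order was reversed (1.79 and 2.25 CPM per kb). ANXA3 stood lower, at 0.460 CPM per kb with a range of 0.0299 to 1.12. S100A11 (0.0725), S100A10 (0.0504) and ANXA1 (0.0187 CPM per kb) were at the limit of detection and cannot be ordered.

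**Figure D1:**
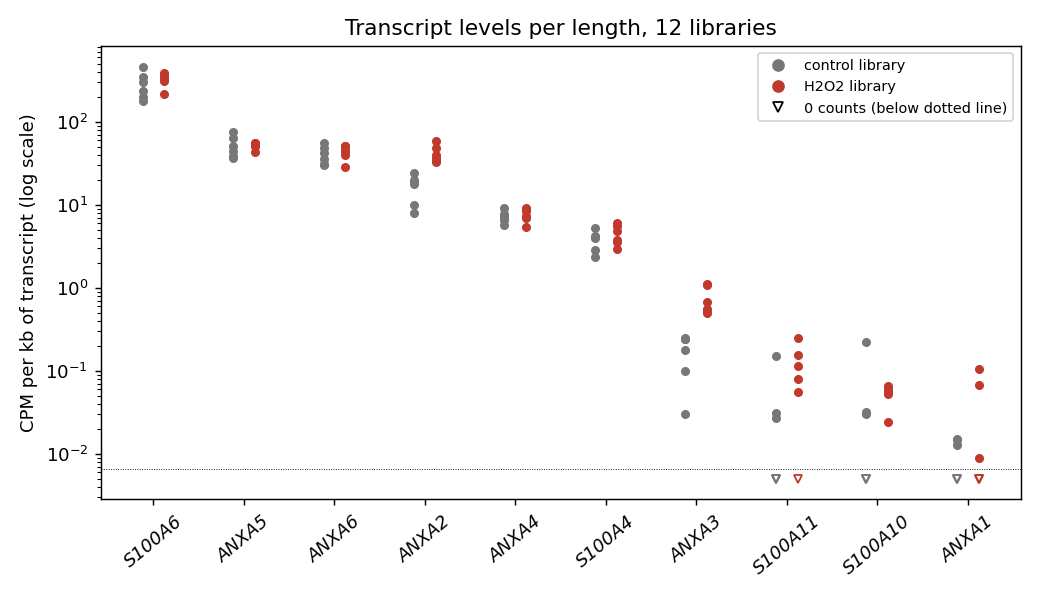
Level of each of the 10 transcripts in CPM per kb of canonical transcript, on a log axis, with 1 point per library (grey, 6 control libraries; red, 6 H2O2 libraries) and open triangles below the dotted line for libraries with 0 counts. S100A6 lies at 179.9 to 465 CPM per kb, and only ANXA2 and ANXA3 have all H2O2 points above all control points.

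ANXA2 was present at 27.98, 29.71 and 38.06 CPM in the co-treatment controls and at 51.48, 53.08 and 62.81 CPM in the co-treated libraries. In the pre-treatment experiment it was at 15.38, 12.41 and 30.96 CPM in control replicates 1, 2 and 3 and at 91.79, 75.65 and 57.61 CPM in the treated libraries. In neither experiment did the groups overlap, and the lowest of the 6 treated libraries was above the highest of the 6 controls. Of 24407 genes, 0.574% showed that ordering over all 12 libraries, and for ANXA2 it follows in part from the way the gene was chosen. The ratio of group means was 1.75 in co-treatment, where the log2 fold change (log2FC) was 0.81 with a standard error (SE) of 0.15. In pre-treatment the ratio was 3.83 over all 6 libraries (log2FC 1.94, SE 0.36) and 5.40 without control replicate 3 (log2FC 2.46, SE 0.22). Control replicate 3 itself held 2.23 times as much ANXA2 as the mean of controls 1 and 2, and the treated mean was 2.42 times that of control replicate 3. In bulk RNA, fewer cells with a transcript and less of it per cell cannot be told apart, here and for every value that follows.

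Reads of ANXA2 can be shared with processed pseudogenes that are nearly identical to its mRNA, and the split between them is uncertain. ANXA2P2 was counted at 0.96 to 1.49 CPM in co-treatment controls and 2.16 to 2.84 CPM in co-treated libraries. In pre-treatment it was at 0.62, 0.41 and 1.25 CPM in controls 1, 2 and 3 and 2.62, 2.78 and 1.502 CPM in the treated libraries. ANXA2P1 ranged from 0.364 to 1.23 CPM over the 12 libraries, with overlapping groups, and ANXA2P3 had at most 8 counts in a library. The counts of the pseudogenes were thus small beside those of ANXA2 in every library. Reads that aligned to more than 1 place, 0.297 to 0.599 per counted read, were set apart from the gene counts. These counts therefore cannot show how many reads were shared.

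ANXA3, an annexin best known from the granules of neutrophils, was the other member with treated libraries above controls throughout. Co-treatment controls held 0.35, 0.26 and 0.35 CPM (17, 12 and 12 counts), and co-treated libraries 0.75, 0.97 and 0.72 CPM (21, 60 and 37 counts). Pre-treatment controls held 0.14, 0.043 and 0.35 CPM (8, 2 and 23 counts), and the treated libraries 1.60, 1.57 and 0.81 CPM (153, 106 and 64 counts). The treated libraries were above the controls in either experiment, as were 6.56% of genes in co-treatment and 8.52% over all 6 pre-treatment libraries. The 6 treated libraries were above the 6 controls together, as for 0.574% of genes. In co-treatment the log2FC was 1.36 (SE 0.42), which did not pass edgeR's quasi-likelihood test after Benjamini-Hochberg adjustment over all genes (FDR 0.300). Over all 6 pre-treatment libraries the log2FC was 2.83 (SE 0.67, FDR 0.320). ANXA3 rose without control replicate 3, with a log2FC of 3.79 (SE 0.59, FDR 0.00409 in the same test). The 6-library call depended on the tool, since edgeR's exact test, DESeq2 and the quasi-likelihood test without a filter on low counts gave FDRs of 0.0115, 0.00328 and 0.0348. In both pre-treatment fits ANXA3 passed the filter on low counts only with its treated libraries, where it was high. With no filter its FDR without control replicate 3 was 1.06e-10.

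The H2O2 effect on ANXA3 was larger in pre-treatment than in co-treatment by 1.45 on the log2 scale (SE 0.75) over 12 libraries, a difference that did not pass the interaction test (edgeR's quasi-likelihood, FDR 0.580). Without pre-treatment control replicate 3 the difference was 2.38 (SE 0.68, FDR 0.0473), in a fit that called 8.02% of all 25668 genes tested. Among all genes, 0.0287% were called in the 12-library interaction test (0.0246% with the larger log2FC in pre-treatment and 0.0041% with the smaller). None of ANXA4, ANXA5, ANXA6, S100A6 and S100A4 was called there, with FDRs of 0.859 to 0.997 over 12 libraries and 0.208 to 0.581 over 11.

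**Figure D2:**
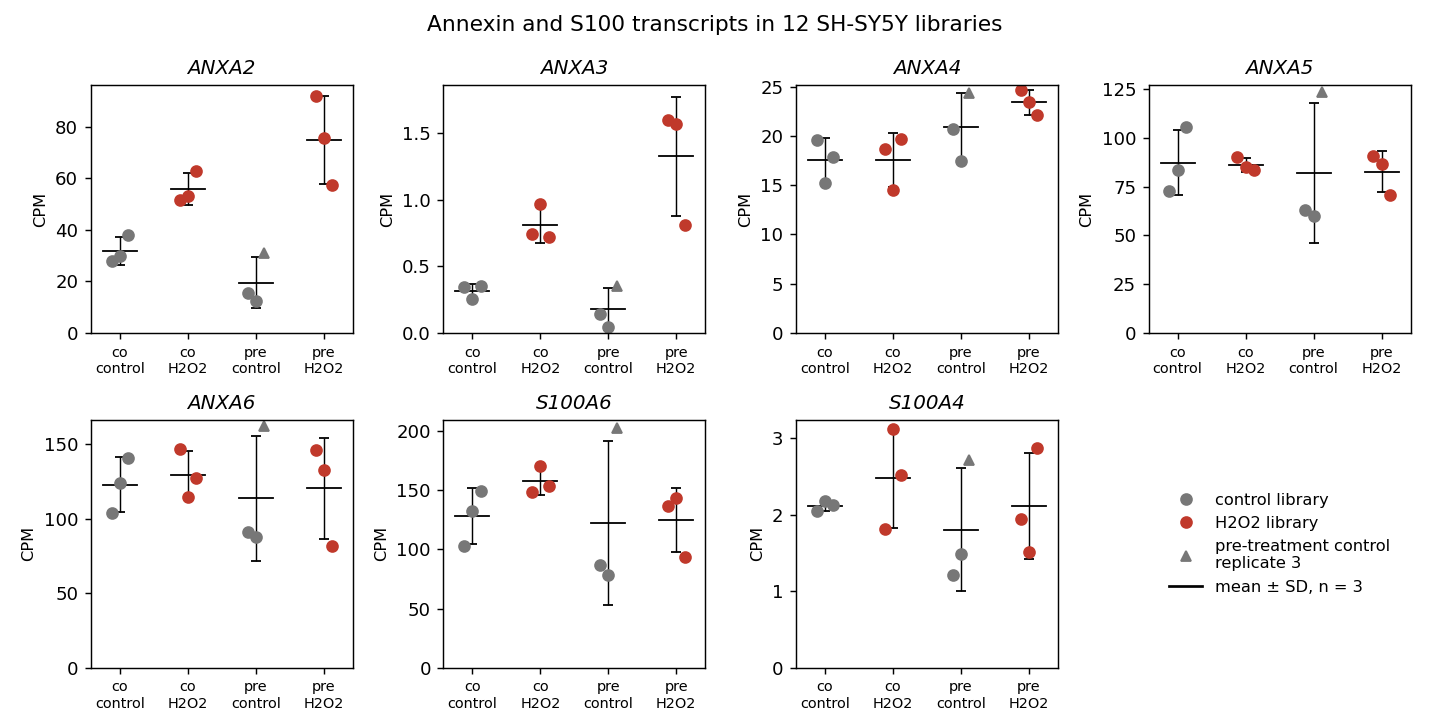
CPM of the 7 members with enough counts for a test, 1 point per library in each group (grey, control; red, H2O2; grey triangle, pre-treatment control replicate 3), with the mean and SD of 3 libraries. ANXA2 and ANXA3 separate treated from control libraries in both experiments, and pre-treatment control replicate 3 is the highest of the 6 pre-treatment libraries for ANXA5, ANXA6 and S100A6.

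In co-treatment, 0 of the 6 tested members other than ANXA2 were called, where 0.598% of 22089 genes were (132 genes, and 1801 at an unadjusted p below 0.05). DESeq2, edgeR's exact test and limma-voom also called 0 of the 6. Over all 6 pre-treatment libraries 0 of 6 were called, with a background of 0.0242% of 24743 genes (6 genes, and 2776 at an unadjusted p below 0.05). DESeq2 and edgeR's exact test each called 1, ANXA3, and limma-voom called 0. Once control replicate 3 was left out, ANXA3, which owed its place in that fit to the treated libraries, ANXA5 and S100A6 were called as higher, where 26.1% of 26350 genes were called, 13.2% as higher and 12.8% as lower.

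ANXA4, which binds membrane phospholipids beneath the plasma membrane, had overlapping groups in both experiments over all libraries. It was counted at 19.56, 15.23 and 17.86 CPM in co-treatment controls and 18.62, 14.48 and 19.66 CPM in co-treated libraries (log2FC 0.00, SE 0.16, FDR 0.999). Pre-treatment controls had 20.70, 17.49 and 24.39 CPM and treated libraries 24.66, 23.39 and 22.14 CPM. The groups overlapped over all 6 libraries (log2FC 0.17, SE 0.18, FDR 0.747). When control replicate 3 was left out the treated libraries were all higher, an ordering that 29.6% of genes then showed, and the log2FC of 0.32 (SE 0.15) did not pass the test (FDR 0.136).

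ANXA5 was at 72.9, 83.3 and 105.5 CPM in co-treatment controls and 90.4, 84.9 and 83.7 CPM in co-treated libraries. The co-treated values lay within the range of the controls (log2FC -0.01, SE 0.14, FDR 0.992). In pre-treatment, controls 1 and 2 had 63.05 and 59.9 CPM, control replicate 3 had 123.3 CPM, and the treated libraries had 90.5, 86.6 and 70.9 CPM. All 3 treated libraries thus lay above controls 1 and 2 and below control replicate 3. The log2FC was 0.01 (SE 0.29, FDR 0.993) over 6 libraries and 0.45 (SE 0.13, FDR 0.0382) without control replicate 3, and against control replicate 3 alone the treated mean was 0.671 times as high.

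ANXA6, which can tether membranes to each other, was also highest in control replicate 3. Co-treatment controls had 103.8, 123.7 and 140.5 CPM and co-treated libraries 146.5, 114.5 and 127.5 CPM, with overlapping groups (log2FC 0.08, SE 0.14, FDR 0.949). Pre-treatment controls 1, 2 and 3 had 91.2, 87.6 and 161.9 CPM, and the treated libraries 146.3, 132.8 and 81.9 CPM. The third treated library was below all controls and treated replicates 1 and 2 were above controls 1 and 2. Neither the 6-library log2FC of 0.08 (SE 0.31, FDR 0.929) nor that of 0.46 without control replicate 3 (SE 0.22, FDR 0.158) passed the test.

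S100A6, also called calcyclin, was the most abundant member per length. It was counted at 102.6, 132.8 and 149.6 CPM in co-treatment controls and 148.0, 170.6 and 153.6 CPM in co-treated libraries. The lowest co-treated library was just under the highest control, and the log2FC of 0.30 (SE 0.15) did not pass the test (FDR 0.665). In pre-treatment, controls 1 and 2 had 87.1 and 78.1 CPM, control replicate 3 had 202.0 CPM, and the treated libraries had 137.0, 143.3 and 93.7 CPM. The log2FC was 0.02 (SE 0.37, FDR 0.985) over 6 libraries and 0.62 (SE 0.18, FDR 0.0388) without control replicate 3. Control replicate 3 was 2.44 times as high as the mean of controls 1 and 2, and the treated mean was 0.617 times that of control replicate 3.

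The calls of ANXA5 and S100A6 without control replicate 3 rested on each of 4 of the remaining libraries. Where 1 control remained, it was assumed to vary as the treated libraries did. Leaving out pre-treatment control 1, control 2, treated replicate 1 or treated replicate 2 gave edgeR quasi-likelihood FDRs of 0.0990, 0.191, 0.140 and 0.116 for ANXA5. For S100A6 these were 0.0911, 0.206, 0.113 and 0.115. Leaving out treated replicate 3 gave FDRs of 0.00770 for ANXA5 and 0.00274 for S100A6, and of 0.00449 for ANXA6, which was not called with all 5 libraries. ANXA3 had log2FCs of 3.24 to 4.94 in these 5 fits. It had passed the filter of the fit without control replicate 3 only with its treated libraries, so this range is no separate support.

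S100A4, a calcium sensor that binds non-muscle myosin and was called metastasin for its place in tumour spread, was low beside S100A6. Co-treatment controls had 2.04, 2.18 and 2.13 CPM, and co-treated libraries 1.81, 3.11 and 2.51 CPM. The treated libraries were more spread than the controls and surrounded them (log2FC 0.24, SE 0.26, FDR 0.892). Pre-treatment controls 1, 2 and 3 had 1.21, 1.48 and 2.71 CPM and the treated libraries 1.94, 1.51 and 2.87 CPM. The log2FC was 0.22 (SE 0.41, FDR 0.845) over 6 libraries. Without control replicate 3 the groups no longer overlapped, as for 29.6% of all genes, with a log2FC of 0.68 (SE 0.33) that did not pass the test (FDR 0.161).

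**Figure D3:**
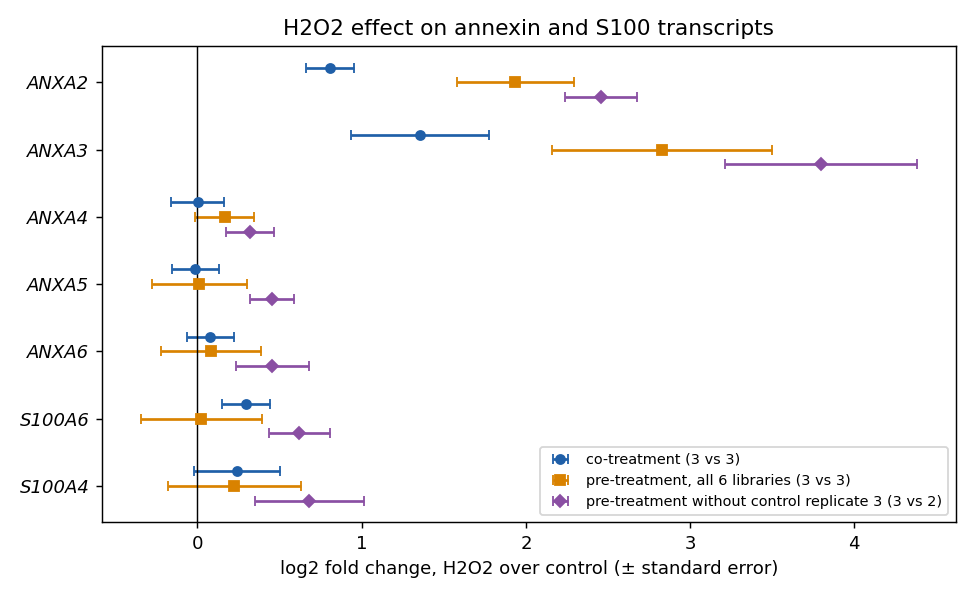
Log2 fold change of H2O2 over control, with its standard error, for the 7 members tested in co-treatment (circles), in pre-treatment over all 6 libraries (squares) and in pre-treatment without control replicate 3 (diamonds). ANXA2 (0.81, 1.94 and 2.46) and ANXA3 (1.36, 2.83 and 3.79) lie furthest from 0, and the other members lie at -0.01 to 0.30 in the comparisons with all libraries and at 0.32 to 0.68 without control replicate 3.

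ANXA1, S100A10 and S100A11 did not pass the filter on low counts in any comparison. ANXA1, the receptor ligand and phospholipase inhibitor, had 1, 1 and 0 counts in co-treatment controls, 0 in every co-treated library, and 1, 0 and 0 counts in pre-treatment controls. The pre-treated libraries had 9, 10 and 1 counts of ANXA1, so the signal was in treated replicates 1 and 2. S100A10 had 1, 7 and 0 counts in co-treatment controls and 1, 1 and 2 in co-treated libraries. Its pre-treatment controls had 0, 1 and 0 counts and the treated libraries 4, 3 and 3. S100A11 had 0, 4 and 0 counts in co-treatment controls, 4, 4 and 0 in co-treated libraries, 1, 0 and 1 in pre-treatment controls and 3, 3 and 7 in pre-treated libraries. A library with 0 counts allows a level of up to 3 counts, which was 0.0313 to 0.107 CPM here, for counting error only. For both S100 genes every pre-treated library was above every control, at 3 to 7 against 0 to 1 counts, and in co-treatment the groups overlapped. In CPM this was 0.0379 to 0.0444 against at most 0.0214 for S100A10 and 0.0313 to 0.0884 against at most 0.0177 for S100A11. The same ordering held for 8.52% of the 24407 genes that passed the 12-library filter, which neither S100 gene passed. The counts of ANXA1, S100A10 and S100A11 were too few for the test, and no fold is given. ANXA2 was thus counted at 12.4 to 91.8 CPM in libraries where its partner S100A10 reached at most 0.150 CPM.

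Of 24 other annexin and S100 genes, 9 passed the filter in co-treatment and 11 in pre-treatment. In edgeR's quasi-likelihood test 0 of 9 were called in co-treatment, against the background of 0.598%, and 0 of 11 over all 6 pre-treatment libraries, against 0.0242%. With control replicate 3 left out, S100A13 (log2FC 1.66, FDR 0.0351) and S100A16 (1.69, FDR 0.0416) rose and S100P fell by 1.65 on the log2 scale (FDR 0.0322), 3 of 11 where 26.1% of all genes were called. S100A13, a partner in the release of fibroblast growth factor without a signal peptide, was at 0.674, 0.214 and 1.56 CPM in pre-treatment controls 1, 2 and 3 and 1.10 to 1.70 CPM in treated libraries. S100A16 was at 0.107 to 0.247 CPM in the 3 controls and 0.391 to 0.518 CPM in treated libraries. Its treated libraries were thus all above the controls, as for 8.52% of all genes. S100P had 30, 25 and 7 counts in the controls and 12 to 15 in treated libraries. The abundant other annexins were ANXA7, with group means of 56.0 to 64.4 CPM, and ANXA11, with 47.9 and 44.7 CPM in co-treatment control and treated cells and 46.3 and 35.0 CPM in pre-treatment. Every pre-treated library was below every control for ANXA11, as for 8.11% of all genes, and its log2FC of -0.40 did not pass the test over 6 libraries (FDR 0.471), nor did that of -0.28 without control replicate 3 (FDR 0.230).

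Among 42 genes whose proteins work with annexins or S100 proteins, 29 passed the filter in each comparison. The plasminogen system, which ANXA2 and S100A10 bring to the cell surface, was tested over 7 genes. PLAT, the tissue plasminogen activator, was at 26.1, 22.5 and 23.7 CPM in co-treatment controls and 68.3, 70.3 and 79.5 CPM in co-treated libraries, and rose (log2FC 1.59, FDR 3.02e-04 in edgeR's quasi-likelihood test), where 0.335% of all genes were called as higher and 0.263% as lower. In pre-treatment, PLAT was at 16.1, 8.23 and 20.3 CPM in controls 1, 2 and 3 and at 59.5, 46.0 and 13.5 CPM in treated libraries, so treated replicate 3 lay among the controls. Its log2FC of 1.41 over 6 libraries (FDR 0.377) and of 1.73 without control replicate 3 (FDR 0.0519) did not pass the test.

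Over all 6 pre-treatment libraries 0 of the 29 partners were called. In the fit without control replicate 3, 9 rose and 4 fell, 13 of 29 beside the 26.1% of all genes called. In the plasminogen system PLAU, the urokinase activator (log2FC 1.31, FDR 0.0436), PLGRKT, a plasminogen receptor, and ENO1, an enolase that also binds plasminogen, rose. ENO1 had group means of 798.6 and 843.3 CPM in co-treatment control and treated cells, 436.3 CPM in pre-treatment controls 1 and 2 and 646.5 CPM in pre-treated cells (log2FC 0.60, FDR 0.0311, or 0.16 and 0.853 with control replicate 3). PLGRKT had a log2FC of 0.64 (FDR 0.0284) without control replicate 3, and of 0.18 with it.

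TLR4, the only one of 5 listed receptors that passed the filter, is a receptor for the S100A8 and S100A9 pair. Its libraries were at 0.245, 0.492 and 0.0583 CPM in co-treatment controls, 0.746, 1.23 and 1.60 CPM in co-treated cells, 0.248, 0.107 and 0.324 CPM in pre-treatment controls and 2.01, 1.81 and 0.568 CPM in pre-treated cells. The 6 treated libraries were all above the 6 controls, as for ANXA2, ANXA3 and 0.574% of all genes. Co-treatment control replicate 3 held only 2 counts of TLR4. The log2FC was 2.13 in co-treatment (FDR 0.181) and 2.66 over all 6 pre-treatment libraries (FDR 0.320), neither past the test, and TLR4 rose without control replicate 3 (log2FC 3.02, FDR 0.0136).

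Of 4 targets of S100A6 and S100A4, CACYBP, the binding protein of calcyclin, rose without control replicate 3 (log2FC 0.66, FDR 0.00683), and MYH9, the myosin heavy chain bound by S100A4, fell by 0.79 on the log2 scale (FDR 0.00358). SUGT1 and PPFIBP1 were not called in any comparison, with log2FCs of -0.20 and 0.37 in that fit, and PPFIBP1 was at -0.70 in co-treatment (FDR 0.0784). Over all 6 libraries CACYBP and MYH9 had log2FCs of 0.38 (FDR 0.559) and -0.64 (FDR 0.338). Of the clients of S100A10, the acid-sensing channel ASIC1 fell by 1.52 (FDR 0.00729) and HLTF rose by 0.56 (FDR 0.0145) without control replicate 3, while the potassium channel KCNK3 (log2FC -0.59, FDR 0.0931) and the protease CTSB (0.33, FDR 0.284) were not called. SRC, a kinase that phosphorylates ANXA2, fell by 1.45 on the log2 scale (FDR 0.00181), with group means of 137 CPM in controls 1 and 2 and 49.3 CPM in treated cells. With control replicate 3 its log2FC was -1.26 (FDR 0.320), and in co-treatment -0.13 (FDR 0.909).

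Of 12 scaffold and membrane repair genes, 11 were tested and 0 were called in co-treatment or over all 6 pre-treatment libraries. AHNAK, the large scaffold that binds the ANXA2 and S100A10 complex, had group means of 973 and 1121 CPM in co-treatment control and treated cells. In pre-treatment these were 1557 CPM (SD 704, n = 3) in controls and 1095 CPM (SD 251, n = 3) in treated cells, and AHNAK fell by 0.77 on the log2 scale without control replicate 3 (FDR 0.0400). The penta-EF-hand proteins PDCD6 and SRI rose in that fit by 0.47 (FDR 0.0185) and 0.35 (FDR 0.0493). The calpains CAPN1 (-0.33, FDR 0.135) and CAPN2 (0.30, FDR 0.0763), the ferlin MYOF (0.19, FDR 0.629), AHNAK2 (-0.01, FDR 0.967) and the ESCRT proteins CHMP4B (-0.44, FDR 0.0559) and PDCD6IP (0.27, FDR 0.110) were not called.

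Markers of the substrate-adherent, mesenchymal state of neuroblastoma cells, in which vimentin is high, moved in part with ANXA2. VIM, the gene of vimentin, was at 9.85, 5.78 and 6.18 CPM in co-treatment controls and 15.5, 15.3 and 17.8 CPM in co-treated libraries, and rose (log2FC 1.16, FDR 0.0272). It was at 3.00, 3.97 and 5.06 CPM in pre-treatment controls and 23.0, 19.6 and 21.9 CPM in treated libraries, and rose over all 6 libraries (log2FC 2.42, FDR 0.0442). Of the 19 listed markers 15 were tested in co-treatment, where VIM alone was called (0.598% of all genes were), and 15 over all 6 pre-treatment libraries, where VIM and COL3A1 (log2FC 2.44, FDR 0.0442) were called beside 0.0242% of all genes. Without control replicate 3, CD44, COL3A1, SPARC, THY1 and VIM rose and NOTCH2 fell, beside a background of 26.1%, while YAP1 was called as higher but had passed the filter only through its treated libraries (0.972, 0.207 and 0.581 CPM, against 0.0532 and 0.0857 CPM in controls 1 and 2). The summed level of the list did not separate the groups, at 1035 to 1300.1 CPM in co-treatment controls, 1105 to 1184 CPM in co-treated libraries, 1225 to 1489 CPM in pre-treatment controls and 911 to 1254 CPM in treated libraries. Without NOTCH2, the most abundant gene of the list, the sums overlapped too. They were 755 to 800 CPM in co-treatment controls and 711 to 780 CPM in co-treated libraries. In pre-treatment they were 666 to 897 CPM in controls and 707 to 864 CPM in treated libraries. CAV1 was at 0 counts in all 12 libraries, and MEOX2 and PRRX1 reached at most 4 and 6 counts. The part of these markers in the ANXA2 and ANXA3 values was not tested.

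Of 13 noradrenergic markers 12 were tested. Over all 6 pre-treatment libraries 0 were called. Without control replicate 3 ISL1 rose and DBH, GATA2, GATA3 and PHOX2A fell, where 13.2% of all genes were called as higher and 12.8% as lower. Their summed level was 3558 to 4496 CPM in co-treatment controls, 2709 to 3528 CPM in co-treated libraries, 2937 to 4413 CPM in pre-treatment controls and 2165 to 2788 CPM in treated libraries, without overlap in either experiment. Of single genes, 6.92% were lower in every treated library in co-treatment and 8.11% over all 6 pre-treatment libraries. Without GATA2, the most abundant marker of the list, the pre-treatment sums overlapped, at 2141 to 3406 CPM in controls and 1740.0 to 2309 CPM in treated libraries. None of 5 tested Schwann cell markers was called, with sums of 3.48 to 5.82 CPM over the 12 libraries. The 5 neuronal markers of the study summed to 1542 to 1569 CPM in co-treatment controls. Co-treated libraries lay below that, at 1170 to 1507 CPM. In pre-treatment the sums overlapped, at 1273 to 1601 CPM in controls and 1099.6 to 1297 CPM in treated libraries. None of the 5 log2FCs was above 0 within either experiment. MAPT alone was called, lower in pre-treatment without control replicate 3, where 12.8% of all genes were called as lower.

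To find the genes whose pattern was most like that of ANXA2, each gene's log2 CPM was centred on its mean and the root mean square (RMS) difference from ANXA2 was taken over the 12 libraries. Of 24406 genes, the pseudogene ANXA2P2, which can share reads with ANXA2, was the nearest, at 0.234 log2 units. It was followed by CA12 (0.247), a carbonic anhydrase of the cell surface, PHLDB2 (0.284), a protein of the cell cortex, TPM1 (0.285), a tropomyosin of actin filaments, and AC015815.6 (0.327). TPM1 was at 34.5 to 36.0 CPM in co-treatment controls, 44.1 to 53.7 CPM in co-treated libraries, 20.9, 16.1 and 31.4 CPM in pre-treatment controls 1, 2 and 3 and 58.7 to 66.6 CPM in treated libraries. Like ANXA2, and also ANXA3, ANXA5, S100A6 and S100A4, it was lowest in pre-treatment controls 1 and 2. PHLDB2 was at 7.49 to 9.94, 10.3 to 15.4, 3.28 to 4.56 and 12.9 to 20.7 CPM in the same 4 groups. These genes were chosen for their likeness, so their differences are given with no test.

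ANXA3 ranked 36th of the 24406 genes by this distance (0.459 log2 units), and the other members were less like ANXA2 than ANXA3 was. S100A6 ranked 2487th (0.703), ANXA6 4096th (0.745), ANXA5 4542nd (0.755), S100A4 4727th (0.759) and ANXA4 6879th (0.806).

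**Figure D4:**
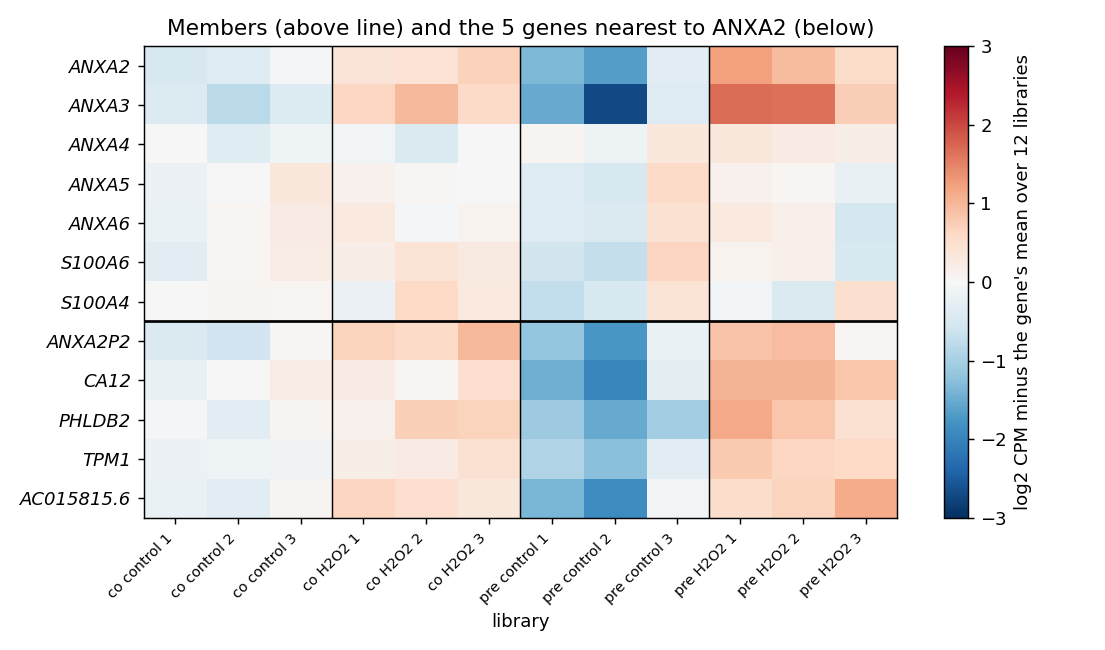
Log2 CPM of the 7 tested members (above the line) and of the 5 genes nearest to ANXA2 (below the line) in each of the 12 libraries, minus the mean of that gene over the 12 libraries, from blue (lower) to red (higher). ANXA2, ANXA3 and the 5 nearest genes are lowest in pre-treatment controls 1 and 2, and so are ANXA5, S100A6 and S100A4. ANXA5, ANXA6 and S100A6 are highest in pre-treatment control 3.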

How the data were processed

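RNA of 12 SH-SY5Y cultures was measured, 3 per group. The authors trimmed reads with cutadapt 2.10, aligned them to hg19 with HISAT2 2.1.0 and obtained raw counts per gene symbol with HTSeq 0.7.2 (versions from the submitters' processing notes). Whether the counting used strand, and which annotation it used, are not given in the sources used here, although the library kit was stranded. The authors' own comparison tables, which hold log2 fold changes, log2 CPM, p-values and FDRs, were not used.

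The deposited counts were fitted in edgeR 4.0.16 (R 4.3.3) after scaling by TMM. A gene needed the CPM, before TMM scaling, that 5 raw counts make in the smallest library (0.181 CPM in co-treatment, 0.120 CPM in pre-treatment), in 3 libraries, or in 2 where control replicate 3 was left out. H2O2 and control were compared by the quasi-likelihood test, adjusted by Benjamini-Hochberg over all genes tested, and a gene was called below an FDR of 0.05. The difference between the experiments was their interaction with treatment. Printed CPM share 1 TMM scaling over the 12 libraries. Shares of genes whose groups did not overlap were taken over the 24407 genes that passed the filter over 12 libraries. The fits were tested on simulated data.

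The 10 members, the gene lists and the tests were chosen with earlier results of these data known. Other family members and partners were named when called within an experiment or at a mean of at least 10 CPM, and some genes of the lists are not reported here. Positions and lengths come from a GENCODE annotation lifted to hg19, and promoters from RefSeq on GRCh38.p14. The settings were varied by tool (the exact test, DESeq2 1.42.0, and voom of limma 3.58.1), scaling, filter, replicate block, 1 fit over both experiments, a fold threshold and each library left out in turn.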

Additional observations from a re-analysis of the deposited data

Results flagged for a closer look

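The effect of H2O2 on ANXA3 differed between the experiments when pre-treatment control replicate 3 was left out. It was larger in pre-treatment than in co-treatment by 2.38 on the log2 scale (SE 0.68), with an FDR of 0.0473 in edgeR's interaction test over 11 libraries, which called 2058 of 25668 genes (8.02%). Over all 12 libraries the difference was 1.45 (SE 0.75) and did not pass the same test (FDR 0.580), which called 7 genes. The call therefore rests on leaving out 1 library, and pre-treatment control replicate 2 held 2 counts of ANXA3. Each experiment had its own controls, so the timing of H2O2 and the experiment cannot be told apart.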

How the results depend on the processing

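Counts of called genes depended on the tool and the filter. In co-treatment the 132 genes became 333 with edgeR's exact test, 344 with DESeq2, 80 with library sizes alone, 535 with no filter and 3 in 1 fit over both experiments, and 18 (without treated replicate 3) to 223 (without control replicate 1) with a library left out, while 0 members other than ANXA2 were called in each. Over all 6 pre-treatment libraries the 6 genes became 271 (exact test), 705 (DESeq2), 0 (limma-voom, 2445 at an unadjusted p below 0.05), 0 (upper-quartile factors, 2907 unadjusted), 1 (library sizes), 319 (no filter) and 68 (1 fit over both experiments). Members other than ANXA2 called were 1, ANXA3, with the exact test, DESeq2 and no filter. With a library left out, 0 to 6871 genes and 0 to 3 members were called, the most without control replicate 3. Without that library 6871 genes and 3 members were called. A fold threshold left 2952 genes and 1 member, upper-quartile factors and library sizes each left 1 member, and leaving out a further library gave 1677 to 8577 genes and 1 to 4 members. For the difference between the experiments the 7 genes became 108 (DESeq2), 4 (library sizes) and 272 (no filter), and 0 to 2058 genes and 0 to 1 members with a library left out, ANXA3 being called without pre-treatment control replicate 3. The cause of these shifts was not tested.

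Log2FCs near 0 changed sign. In co-treatment that of ANXA4 was -0.0139 by limma-voom and -7e-04 in 1 fit over both experiments, and that of ANXA5 was 0.0043, 0.0114 and 0.0432 by limma-voom, upper-quartile factors and library sizes. Over all 6 pre-treatment libraries ANXA5 was at -0.0172 by DESeq2 and by its size factors and at -0.0091 in 1 fit over both experiments, and S100A6 at -0.0027 and -0.0028 by DESeq2 and its size factors. With a library left out, co-treatment log2FCs were -0.0998 to 0.1246 for ANXA4, -0.1281 to 0.1451 for ANXA5 and -0.0280 to 0.1881 for ANXA6. Those over all pre-treatment libraries were -0.1761 to 0.4550 for ANXA5, -0.0783 to 0.4563 for ANXA6, -0.2170 to 0.6207 for S100A6 and -0.0628 to 0.6807 for S100A4. ANXA2 and ANXA3 stayed above 0 under every alternative, which for ANXA2 follows in part from the way the gene was chosen. With 1 library left out, they were at 0.71 to 0.95 and 1.20 to 1.44 in co-treatment and 1.69 to 2.46 and 2.39 to 3.79 over the pre-treatment libraries. S100A6 was not called by limma-voom without control replicate 3 (FDR 0.0516), nor ANXA5 in 1 fit over both experiments (FDR 0.0757).

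The labels give the groups the same replicate numbers, but no source says that a number marks a shared culture or day. Deviations of same-numbered libraries from their group means correlated by -0.0658, -0.0743 and -0.0646 in co-treatment and -0.230, 0.0290 and -0.279 over all pre-treatment libraries. Without control replicate 3 the correlations were 0.0726 and -0.00208 for replicates 1 and 2. These values gave no sign of pairing, but with so few libraries per group they cannot exclude it. A replicate block gave 181 genes in co-treatment, 0 over all 6 pre-treatment libraries (1957 at an unadjusted p below 0.05), 10755 with 5 members called without control replicate 3 and 0 for the difference between the experiments (1603 unadjusted). Under the block the co-treatment log2FCs of ANXA4 and ANXA5 were -0.0013 and 0.0013. Genes at 0 to 10 counts, ANXA1, S100A10 and S100A11, were limited by depth.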

Other observations

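S100A8 and S100A9, which form the inflammatory pair calprotectin, were concentrated in 1 library. Co-treatment control replicate 2 had 45 counts of S100A8 and 92 of S100A9 (0.963 and 1.97 CPM). The other 11 libraries had at most 10 and 24 counts. Both genes were below the filter on low counts in co-treatment. The same library held the most S100A10 counts of the series, 7, while its 4 counts of S100A11 were matched by co-treated replicates 1 and 2.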
